A study of Mus musculus with 20 samples.

Results

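Chemokines and their receptors were followed through mouse liver as it was replaced by colorectal liver metastasis (CRLM), and in F4/80+ and CD11b+ cells taken from that tissue. Members were the protein-coding genes named as CC, CXC or CX3C ligands, as CCR, CXCR or XCR1 receptors or as atypical chemokine receptors, with the platelet chemokines Pf4 and Ppbp and without Ccr2 and Cxcr2. The rule found 64 gene IDs with 58 symbols, 39 of them ligands and 19 receptors, among 54532 genes and 22046 protein-coding genes in the tables. Of these 64, 5 had no count in any sample, 7 never exceeded 3 counts, and 52 exceeded 3 counts in at least 1 sample.

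All animals were wild-type C57BL/6 mice, and tumors were seeded by injecting 1000000 MC38 cells, a mouse colon carcinoma line, into the spleen, from which cells reach the liver. The con group was liver of mice given normal saline, taken at day 0 (2 samples), and L-con was liver free of tumor and remote from it in a tumor-bearing mouse at day 12 (1 sample). Tumor-bearing tissue was ordered by tumor load as Lt and Mt3 at day 9, Mt2 and Mt1 at day 11, and Ht at day 12, with 2 livers in each group (3 libraries in Ht), and Ht was tissue made up almost wholly of tumor by the study's methods. Tumor load and day rise together from con to Lt to Ht, so they cannot be told apart in comparisons of these groups. The F4/80+ and CD11b+ cells were drawn by magnetic beads from Mt2 tissue at day 11, with 3 libraries each, and no label ties these libraries to separate animals, so their p-values measure only the spread between these samples. The labels call the tissue mice male whereas the methods describe female mice. Xist held 0 to 3 counts in the 14 tissue libraries and 5547 to 21805 in the 6 libraries of sorted cells, while Ddx3y, on the Y chromosome, held 348 to 1421 and 0 counts. Sex, table and kind of sample therefore cannot be told apart in any comparison of sorted cells with tissue.

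Chemokines are small secreted proteins that guide leukocytes along a concentration gradient by binding receptors coupled to G proteins on the moving cell. CC ligands such as Ccl2 draw monocytes, CXC ligands with an ELR motif such as Cxcl1 and Cxcl2 draw neutrophils through Cxcr2, and Cxcl9 and Cxcl10 are induced by interferon and draw T cells and NK cells through Cxcr3. Cxcl12 is a homing chemokine made by stromal cells, and the atypical receptors bind ligands without G protein signalling and clear them. In the liver, resident macrophages (Kupffer cells), endothelial cells and stellate cells are among the known sources, and infiltrating monocytes and neutrophils carry many of the receptors.

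Upstream sequence is shown for 5 ligands on which the results turn: the neighbours Cxcl1, Cxcl2 and Cxcl3, which lie together on chromosome 5 yet differed widely in level, Cxcl10, which rose with the tumor, and Cxcl12, which fell. Each run ends before the deposited start of the gene, reads 5′ to 3′ on the gene's strand, and is RefSeq sequence of GRCm38.p6. Capitals mark matches, on either strand, to the NF-κB core GGNNTTTCC, the interferon-stimulated response element core GAAANNGAA or the AP-1 motif TGANTCA, and no marked matches overlap.
Cxcl1, chr5:90890995-90891240, + strand: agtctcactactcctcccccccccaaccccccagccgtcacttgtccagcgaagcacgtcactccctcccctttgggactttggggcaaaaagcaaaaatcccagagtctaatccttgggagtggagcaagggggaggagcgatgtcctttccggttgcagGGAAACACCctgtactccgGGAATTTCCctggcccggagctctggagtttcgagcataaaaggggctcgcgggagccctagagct
Cxcl2, chr5:90903649-90903870, + strand: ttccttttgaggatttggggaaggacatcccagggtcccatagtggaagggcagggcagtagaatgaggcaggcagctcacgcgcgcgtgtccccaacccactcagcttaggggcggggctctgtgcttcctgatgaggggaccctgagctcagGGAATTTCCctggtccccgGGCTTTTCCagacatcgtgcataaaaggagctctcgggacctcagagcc
Cxcl3, chr5:90785851-90786100, + strand: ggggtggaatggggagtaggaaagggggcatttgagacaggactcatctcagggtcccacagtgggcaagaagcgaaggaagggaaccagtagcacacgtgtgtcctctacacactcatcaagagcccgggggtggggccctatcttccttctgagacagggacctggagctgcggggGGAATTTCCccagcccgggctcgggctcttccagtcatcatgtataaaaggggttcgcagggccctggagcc
Cxcl10, chr5:92348890-92349139, − strand: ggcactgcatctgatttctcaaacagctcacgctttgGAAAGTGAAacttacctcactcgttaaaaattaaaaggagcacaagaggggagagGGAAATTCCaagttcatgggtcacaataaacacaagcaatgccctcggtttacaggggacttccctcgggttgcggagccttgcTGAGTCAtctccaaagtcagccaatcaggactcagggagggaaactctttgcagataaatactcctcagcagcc
Cxcl12, chr6:117168285-117168534, + strand: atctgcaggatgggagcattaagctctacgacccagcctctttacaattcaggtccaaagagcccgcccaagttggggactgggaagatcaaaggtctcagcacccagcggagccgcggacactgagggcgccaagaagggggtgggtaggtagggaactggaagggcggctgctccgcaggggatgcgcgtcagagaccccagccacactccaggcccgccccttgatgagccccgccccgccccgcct

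The letters GGAATTTCC stood upstream of each of Cxcl1, Cxcl2 and Cxcl3, and Cxcl1 and Cxcl2 each held another NF-κB core match. Cxcl10 held 1 match each to the NF-κB core, the interferon-stimulated core and AP-1, and Cxcl12 held none of the motifs searched. The runs of Cxcl1 and Cxcl2 are shorter because bases past the deposited start were left out, the windows being set from the RefSeq start. Windows of 250 bases before the RefSeq start were listed for 43 of the 58 member symbols. The NF-κB core was present in 9 of these 43 windows (20.9%) and in 1619 of all 32851 windows (4.93%), the interferon-stimulated core in 7 (16.3%, against 7.13% of all), AP-1 in 5 (11.6%, against 6.75%), and the GAS motif TTCNNNGAA in 3 (6.98%, against 7.02%). A match is a run of letters and no evidence of binding.

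Library totals were 16032085 to 18246623 counts in the 14 tissue libraries and 17785496 to 20548370 in the 6 of sorted cells. Levels are given as CPM (a library's counts scaled to 1000000) scaled by trimmed mean of M-values over 19 samples, Ht_1 and Ht_3 being summed to 1 sample because the study states that the pair was made identical. The pair was not identical in counts (chi-square per degree of freedom 27.6 between Ht_1 and Ht_3 and 12.1 between Ht_2 and Ht_3). Hepatocyte markers summed to 162000–193000 CPM in con and 3210–4890 in Ht, and macrophage markers to 430–647 and 2200–2210. In tissue, fewer cells of a type and less RNA per cell cannot be told apart, nor can more cells and more RNA per cell. Each marker list was read as the sum of all its genes, and the part of cell content in any result below was not tested unless a value beside it says more.

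A member was called where edgeR gave an adjusted p no higher than 0.05 over all genes with a log2 fold change of 1 or more in size. Libraries are named by group and replicate, and Ht 1 stands for the sum of Ht_1 and Ht_3, which were left out together. A call described as lost did not pass the adjusted p or the fold change when the library named was left out or under the setting named. The figure after it is the adjusted p then reached, or the highest where several had this effect. Only members passing a filter on low counts were tested, 47 in tissue and 39 or 49 in comparisons with sorted cells, and members that passed through the one group where they were high are among them. From con to Lt, 18 of 47 members were called higher (all genes tested, 12.4%) and none lower (all genes, 0.256%; 0 members were lower at an unadjusted p under 0.05, and DESeq2 called 0). Between Lt and Ht the counts were 4 higher (all genes, 11.7%) and 9 lower (20.2%). Between con and Ht, 22 members were called higher, or 46.8% of those tested, against 25.8% of all genes, and 6 lower, or 12.8%, against 24.1%. The median log2 fold change of tested members was 2.15 from con to Lt (1.78 with genes at 0 counts in con set to their bound; all genes 0.10), -0.02 from Lt to Ht (all genes -0.01) and 2.06 from con to Ht (1.85 with bounds; all genes 0.09). Scaling by total counts instead moved the median of all genes to 0.40, 0.87 and 1.27 and the member calls to 18 higher and 0 lower, 11 and 5, and 31 and 2. Without con replicate 2, 6 members were called from con to Lt, and from Lt to Ht there were 4 without Lt replicate 1, 3 without Ht replicate 1 and 7 without Ht replicate 2. The comparisons con to Lt and con to Ht share the con samples.

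The CC ligands listed as monocyte-attracting, Ccl2, Ccl7, Ccl12 and Ccl8, lie on chromosome 11 between 82035571 and 82116799, with Ccl11 among them. Ccl8 was counted in this list although it binds Ccr8 in the mouse. These ligands were near or at 0 in con and rose in tumor-bearing tissue, with 4 of 4 called higher in both con to Lt and con to Ht (all genes, 12.4% and 25.8%; median 6.86 and 7.84, or 5.91 and 7.10 with bounds). Ccl2, the main ligand of Ccr2 and the signal that draws monocytes out of the blood, stood at 0.549 and 0.517 CPM in con, 32.9 and 71.5 in Lt and 5.79 in L-con. Ccl2 then measured 91.8 and 77.1 CPM in Ht, 56.7 and 103 in Mt1, 54.6 and 129 in Mt2 and 37.2 and 50.1 in Mt3. Every tumor-bearing sample lay above both con samples, Mt3 lay within the range of Lt, and Ht within that of Mt2. Ccl2 was higher in Lt (log2 fold change 6.60, SE 0.68, adjusted p = 0.00134, edgeR). In Ht, Ccl2 was also higher than in con (log2 fold change 7.27, SE 0.69, adjusted p = 0.000101, edgeR). The change of Ccl2 from Lt to Ht was not called (log2 fold change 0.67, SE 0.47, adjusted p = 0.264, edgeR).

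Ccl7, which also binds Ccr1 and Ccr2, measured 0 and 0.172 CPM in con, 9.62 and 16.7 in Lt, 16.4 and 42.5 in Mt2 and 31.9 and 33.6 in Ht. With 2 counts in con, its ratio of pooled counts was 150 in Lt (95% counting interval 41.3 to 1250; adjusted p = 0.00194, edgeR) and 366 in Ht (101 to 3020; adjusted p = 0.000126, edgeR). Ccl12, another Ccr2 ligand, had no count in either con sample and 7.98 and 11.7 CPM in Lt and 34.8 and 29.9 in Ht, so that it was at least 37-fold higher in Lt (adjusted p = 0.00187, edgeR) and at least 121-fold higher in Ht (adjusted p = 0.000109, edgeR), measured against a floor of 3 counts per library. Of these 4, Ccl12 was called higher from Lt to Ht (log2 fold change 1.69, SE 0.44, adjusted p = 0.0163, edgeR, lost without Lt 1, Ht 1 or Ht 2 at up to 0.112). Ccl8, a ligand of Ccr8 in the mouse, measured 0.549 and 0 CPM in con, 5.67 and 5.34 in Lt and 11.2 and 16.2 in Ht, higher in Lt (log2 fold change 4.33, SE 0.89, adjusted p = 0.0121, edgeR, lost without con 2 or Lt 2 at up to 0.0787). In Ht, Ccl8 was also higher than in con (log2 fold change 5.62, SE 0.88, adjusted p = 0.000593, edgeR). Monocyte markers, all 6 present, summed to 11.3–17.5 CPM in con, 121–271 in Lt and 200–253 in Ht, beside these ligands.

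**Figure D1:**
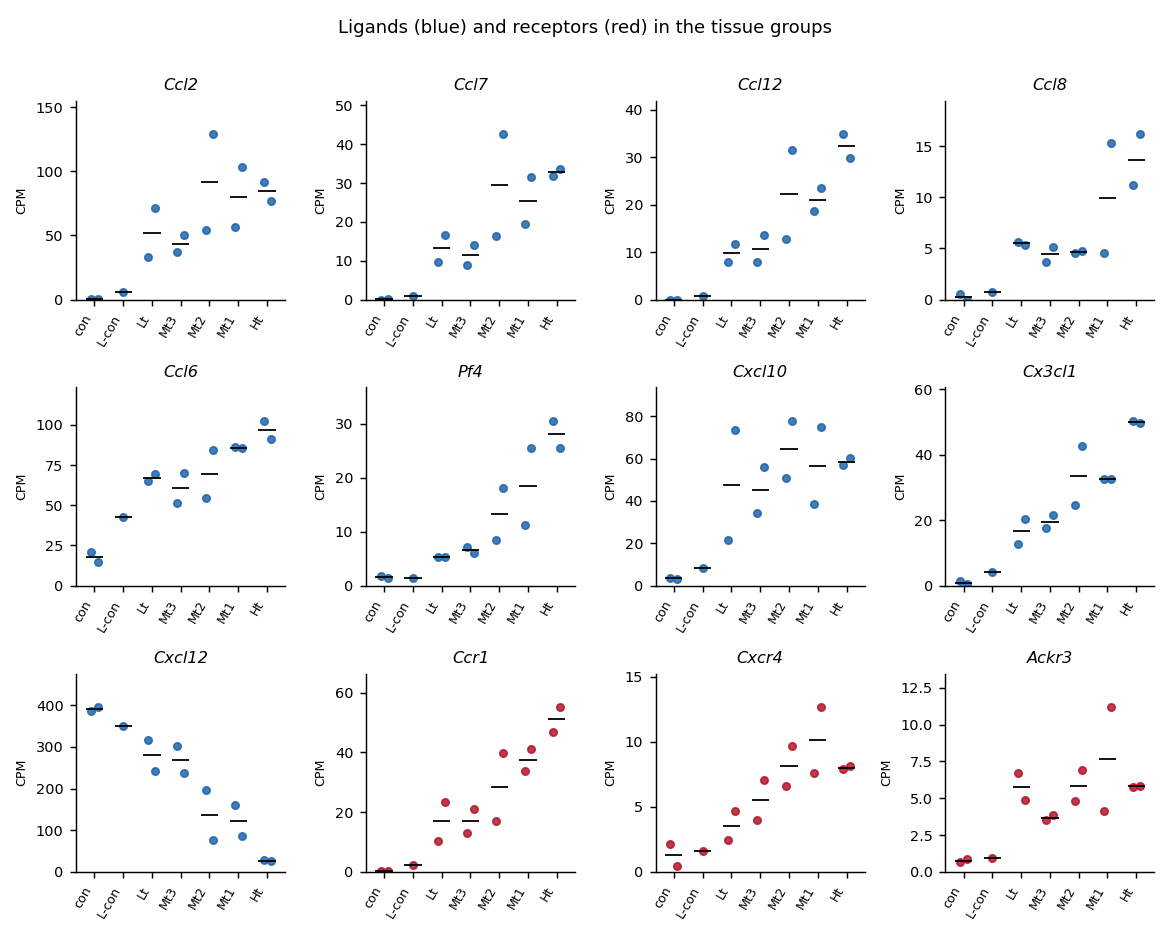
CPM of 12 members (vertical axes, each from 0) in the 7 tissue groups by rising tumor load, where each point is 1 sample and each short line the group mean, with ligands in blue and receptors in red. Ccl2 ran from below 1 CPM in con to 77.1 and 91.8 in Ht, while Cxcl12 ran from 386 and 397 down to 25.7 and 27.9.

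The inflammatory CC ligands Ccl3, Ccl4, Ccl5, Ccl6 and Ccl9 divided in tissue, with 2 of 5 called higher from con to Ht (40%, against 25.8% of all genes; median 1.52, against 0.09). Ccl6, a macrophage-derived ligand of Ccr1 in rodents, measured 21.1 and 14.8 CPM in con, 65 and 69.3 in Lt and 42.8 in L-con. It reached 103 and 90.9 CPM in Ht. It was higher in Lt (log2 fold change 1.90, SE 0.26, adjusted p = 0.00248, edgeR). In Ht, Ccl6 was also higher than in con (log2 fold change 2.41, SE 0.27, adjusted p = 0.000154, edgeR), and con overlapped with no other group. Its neighbour Ccl9 was already abundant in con at 155 and 89.2 CPM and measured 102 and 102 in Ht, where it was not called (log2 fold change -0.28, SE 0.28, adjusted p = 0.405, edgeR). Ccl3 and Ccl4, early inflammatory ligands, were low in all tissue. Ccl3 stood at 1.65 and 0.172 CPM in con and 1.82 and 2.78 in Ht and was not called (log2 fold change 1.32, SE 0.87, adjusted p = 0.208, edgeR), whereas Ccl4, at 0.824 and 0.0862 CPM in con and 1.98 and 3.4 in Ht, was called higher (log2 fold change 2.54, SE 0.96, adjusted p = 0.0426, edgeR, lost without con 2, Ht 1 or Ht 2 at up to 0.209). Ccl5, a T cell and NK cell product, spread from 0.949 to 10.3 CPM within con and measured 15.6 and 16.8 in Ht (log2 fold change 1.52, SE 0.87, adjusted p = 0.151, edgeR).

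The interferon-inducible pair Cxcl9 and Cxcl10, neighbours on chromosome 5, parted. Cxcl10 measured 3.66 and 3.36 CPM in con, 21.8 and 73.5 in Lt and 8.55 in L-con. Cxcl10 then measured 56.9 and 60.1 CPM in Ht, 38.6 and 74.8 in Mt1, 50.9 and 77.9 in Mt2 and 34.4 and 55.8 in Mt3. It was higher in Lt (log2 fold change 3.77, SE 0.61, adjusted p = 0.00434, edgeR, lost without con 2 at 0.0576). In Ht, Cxcl10 was also higher than in con (log2 fold change 4.04, SE 0.61, adjusted p = 0.00053, edgeR), and the low and high tumor loads overlapped. Cxcl9 varied within groups, at 57.4 and 11.1 CPM in con, 35.8 and 109.9 in Lt and 14.4 and 24 in Ht, and was not called from con to Ht (log2 fold change -0.86, SE 0.80, adjusted p = 0.368, edgeR).

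Neutrophil-attracting CXC ligands with an ELR motif stayed low in tissue. Cxcl1 measured 3.02 and 2.16 CPM in con, 14.8 and 9.21 in Lt and 6.05 in L-con. Cxcl1 then measured 2.33 and 3.84 CPM in Ht, 17.2 and 6.49 in Mt1, 5.34 and 8.12 in Mt2 and 14.7 and 8.05 in Mt3. Thus Cxcl1 was higher in Lt than in con (log2 fold change 2.22, SE 0.56, adjusted p = 0.0291, edgeR, lost without con 1, con 2, Lt 1 or Lt 2 at up to 0.181) and lower in Ht than in Lt (log2 fold change -1.99, SE 0.53, adjusted p = 0.015, edgeR, lost without Lt 1 or Ht 1 and under total-count scaling at up to 0.104). Cxcl2 held at most 1.72 CPM in tissue apart from 8.65 in Mt1 replicate 2, and Cxcl3 at most 0.127 CPM apart from 3.13 in that same library. Cxcl5 also peaked there, at 5.34 CPM. Ppbp, stored in platelet granules, measured 1.42 and 0.734 CPM in Lt and 0.157 and 0.366 in Ht and was lower in Ht (log2 fold change -2.09, SE 0.66, adjusted p = 0.0297, edgeR, lost without Lt 1, Ht 1 or Ht 2 and under total-count scaling at up to 0.199). Platelet markers summed to 2.95–6.4 CPM in tissue, with Gp1bb among the genes at 0 counts in Lt and Ht. Neutrophil markers summed to 3.36–5.22 CPM in con, 51.2–83 in Lt, 161–288 in Mt1 and 182–201 in Ht.

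Pf4, the neighbouring chemokine of platelets and macrophages, rose at both steps. It measured 1.74 and 1.38 CPM in con, 5.37 and 5.34 in Lt and 1.47 in L-con. Pf4 then measured 30.6 and 25.6 CPM in Ht, 11.3 and 25.5 in Mt1, 8.46 and 18.1 in Mt2 and 7.15 and 6.02 in Mt3. Both Ht samples exceeded every sample of the other tissue groups. Pf4 was higher in Lt than in con (log2 fold change 1.78, SE 0.49, adjusted p = 0.0419, edgeR, lost without con 1, con 2, Lt 1 or Lt 2 and under total-count scaling at up to 0.216), in Ht than in Lt (log2 fold change 2.37, SE 0.44, adjusted p = 0.00414, edgeR) and in Ht than in con (log2 fold change 4.15, SE 0.50, adjusted p = 0.000208, edgeR). Beside it, macrophage markers summed to more in Ht than in con (values above), while the 7 platelet markers summed to 4.66–5.31 CPM in con and 2.95–3.62 in Ht.

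The other ligands of Ccr3, Ccr4 and Ccr8, counted without Ccl8, were scarce, and 3 of 4 tested (Ccl11, Ccl17 and Ccl22, with Ccl24 as the fourth) were called higher from con to Lt (all genes, 12.4%) and from con to Ht (25.8%). Ccl11 (eotaxin) had no count in con and measured 1.27 and 1.47 CPM in Lt and 1.06 and 0.696 in Ht, at least 5.13-fold higher in Lt (adjusted p = 0.0097, edgeR, lost without con 2 at 0.0666) and at least 3.29-fold in Ht (adjusted p = 0.00325, edgeR). Ccl17, a Ccr4 ligand of dendritic cells, had 1 count in con and ratios of 25.4 in Lt (4.24 to 1030; adjusted p = 0.0149, edgeR, lost without con 1 or con 2 at up to 0.0852) and 35.3 in Ht (6.22 to 1410; adjusted p = 0.00152, edgeR). Ccl22, the other Ccr4 ligand, measured 1.01 and 0.172 CPM in con, 3.8 and 6.8 in Lt and 3.52 and 4.58 in Ht and was higher in Lt (log2 fold change 3.18, SE 0.69, adjusted p = 0.0152, edgeR, lost without con 2 or Lt 2 at up to 0.0984). In Ht, Ccl22 was also higher than in con (log2 fold change 2.76, SE 0.68, adjusted p = 0.00625, edgeR). Ccl24, an eotaxin of macrophages, measured 2.38 and 3.28 CPM in con, 9.4 and 9.67 in Lt, 10 in L-con and 1.86 and 2.16 in Ht, lower in Ht than in Lt (log2 fold change -2.27, SE 0.50, adjusted p = 0.0076, edgeR, lost without Ht 1 at 0.0572). Kupffer cell markers, of which 5 of 5 were present, summed to 333–445 CPM in con, 720–760 in Lt and 74.5–130 in Ht.

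Homing ligands moved the other way, with 2 of 3 tested called lower from con to Ht (all genes, 24.1%; median -2.83, against 0.09). Cxcl12, the ligand of Cxcr4 and Ackr3, measured 386 and 397 CPM in con, 317 and 242 in Lt and 351 in L-con. Cxcl12 then measured 27.9 and 25.7 CPM in Ht, 159 and 86.1 in Mt1, 197 and 77 in Mt2 and 301 and 238 in Mt3. No other group overlapped with Ht. The fall was called from Lt to Ht (log2 fold change -3.40, SE 0.47, adjusted p = 0.00302, edgeR) and from con to Ht (log2 fold change -3.88, SE 0.48, adjusted p = 0.000227, edgeR), and under total-count scaling it was still -2.49 and -2.70. Endothelial markers summed to 451–495 CPM in con and 184–196 in Ht, with 4 of 9 called lower and 0 higher. Stellate cell and fibroblast markers, which include several collagens, summed to 293–402 and 6200–7030, with 5 of 8 called higher and 1 lower (all genes, 25.8% higher and 24.1% lower). Cxcl13, which draws B cells through Cxcr5, measured 4.94 and 1.81 CPM in con, 3.21 and 3.54 in Lt and 0.235 and 0.769 in Ht, lower from Lt to Ht (log2 fold change -2.83, SE 0.77, adjusted p = 0.0166, edgeR, lost without Lt 1 or Ht 1 at up to 0.11) and from con to Ht (log2 fold change -2.83, SE 0.78, adjusted p = 0.0105, edgeR, lost without con 1 or Ht 1 and under total-count scaling at up to 0.093). Ccl19, Ccl21b and Ccl21c were not tested, and the near-identical Ccl21 copies cannot be counted apart with certainty.

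Both membrane-anchored ligands were called higher from con to Lt (all genes, 12.4%) and from con to Ht (25.8%), and 1 of the 2 from Lt to Ht (11.7%). Cx3cl1 (fractalkine), which tethers cells carrying Cx3cr1, measured 1.37 and 0.431 CPM in con, 12.8 and 20.4 in Lt and 4.15 in L-con. Cx3cl1 then measured 50.4 and 49.7 CPM in Ht, 32.6 and 32.7 in Mt1, 24.6 and 42.6 in Mt2 and 17.5 and 21.5 in Mt3. Its level was highest in both Ht samples, and it was higher in Lt than in con (log2 fold change 4.21, SE 0.47, adjusted p = 0.00159, edgeR), in Ht than in Lt (log2 fold change 1.57, SE 0.36, adjusted p = 0.00844, edgeR, lost without Lt 1 at 0.07) and in Ht than in con (log2 fold change 5.78, SE 0.48, adjusted p = 9.02e-05, edgeR). Cxcl16, the ligand of Cxcr6, moved from 14 and 12.6 CPM in con to 24.2 and 39.5 in Lt (log2 fold change 1.26, SE 0.30, adjusted p = 0.0215, edgeR, lost without con 1, con 2 or Lt 2 at up to 0.174) and 43.3 and 53.4 in Ht (log2 fold change 1.85, SE 0.30, adjusted p = 0.000706, edgeR). Of the epithelial ligands, Cxcl14 measured 1.65 and 3.62 CPM in con, 23.2 and 20.5 in Lt and 10.4 and 11.9 in Ht, higher in Lt (log2 fold change 3.05, SE 0.74, adjusted p = 0.0245, edgeR, lost without con 1, con 2, Lt 1 or Lt 2 at up to 0.15). In Ht, Cxcl14 was also higher than in con (log2 fold change 2.06, SE 0.72, adjusted p = 0.0318, edgeR, lost without con 1, con 2, Ht 1 or Ht 2 at up to 0.164). Ccl27a, whose near-identical copies make its count uncertain, fell from 8.79 and 6.73 CPM in con to 0.607 and 0.329 in Ht (log2 fold change -4.00, SE 0.91, adjusted p = 0.00405, edgeR; Lt to Ht, log2 fold change -3.82, SE 0.90, adjusted p = 0.00961, edgeR, lost without Ht 1 or Ht 2 at up to 0.0671). Ccl25 was lower in Ht (5.04 and 7.93 against 3.6 and 2.85 CPM; log2 fold change -1.02, SE 0.30, adjusted p = 0.0155, edgeR, lost without con 2 or Ht 2 and under DESeq2, with no filter or with Ht as 3 samples at up to 0.134), but 0.16 under total-count scaling, so its direction rests on the scaling.

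Among CC receptors, Ccr1, carried by monocytes, macrophages and neutrophils, had the largest called change from con to Ht. Ccr1 measured 0.183 and 0.172 CPM in con, with 2 counts in each sample, 10.4 and 23.3 in Lt and 2.42 in L-con. Ccr1 then measured 46.9 and 55.3 CPM in Ht, 33.6 and 41.1 in Mt1, 17 and 39.7 in Mt2 and 13 and 21.1 in Mt3. Both Ht samples lay above every other tissue sample, and Ccr1 was called higher from con to Lt (log2 fold change 6.53, SE 0.76, adjusted p = 0.00167, edgeR), from Lt to Ht (log2 fold change 1.57, SE 0.45, adjusted p = 0.0205, edgeR, lost without Lt 1, Ht 1 or Ht 2 at up to 0.132) and from con to Ht (log2 fold change 8.10, SE 0.75, adjusted p = 9.31e-05, edgeR). Ccr7, which guides dendritic cells and T cells to lymph nodes, measured 0.458 and 0.172 CPM in con, 2.76 and 5.34 in Lt and 3.35 and 5.67 in Ht, higher in Lt (log2 fold change 3.68, SE 0.62, adjusted p = 0.00512, edgeR, lost without con 2 at 0.0607). In Ht, Ccr7 was also higher than in con (log2 fold change 3.80, SE 0.61, adjusted p = 0.000665, edgeR). Ccr8 had no count in con and was at least 1.2-fold higher in Ht (adjusted p = 0.0117, edgeR). Ccr3, the eotaxin receptor, was lower in Ht than in Lt (0.97 and 1 against 0.352 and 0.183 CPM; log2 fold change -1.83, SE 0.62, adjusted p = 0.0396, edgeR, lost without Lt 1, Lt 2, Ht 1, Ht 2 or Mt1 2 and under total-count scaling or with no filter at up to 0.228). Ccr3, Ccr4, Ccr6, Ccr9, Ccr10 and Xcr1 were not called from con to Ht.

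Cxcr4, the receptor of Cxcl12, rose from con to Ht while its ligand fell. It measured 2.11 and 0.431 CPM in con, 2.46 and 4.67 in Lt, 6.57 and 9.68 in Mt2 and 7.88 and 8.16 in Ht (log2 fold change 2.65, SE 0.63, adjusted p = 0.00522, edgeR). Cxcr3, the receptor of Cxcl9 and Cxcl10 on T cells and NK cells, stood at 1.01 and 0.259 CPM in con and 2.54 and 2.78 in Ht (log2 fold change 2.06, SE 0.66, adjusted p = 0.021, edgeR, lost without con 2, Ht 1 or Ht 2 at up to 0.132), and Cxcr6 at 0.915 and 0.776 in con and 1.86 and 3.44 in Ht (log2 fold change 1.61, SE 0.43, adjusted p = 0.00928, edgeR, lost without con 2 or Ht 2 at up to 0.0725). T cell markers summed to 3.36–13.5 CPM in con and 26.5–36.4 in Ht, with 2 of 7 called higher (28.6%, near the 25.8% of all genes), and NK cell markers to 1.12–13.1 and 33.7, with 4 of 6 called higher. The atypical receptors differed in direction. Ackr3, which takes up Cxcl12, measured 0.641 and 0.862 CPM in con, 6.71 and 4.87 in Lt, 4.82 and 6.89 in Mt2 and 5.73 and 5.86 in Ht and was higher in Lt (log2 fold change 2.93, SE 0.52, adjusted p = 0.0065, edgeR, lost without con 1 or con 2 at up to 0.058). In Ht, Ackr3 was also higher than in con (log2 fold change 2.92, SE 0.51, adjusted p = 0.00107, edgeR). Ackr1, found on venous endothelium and red cells, was lower in Ht than in Lt (1.72 and 1.2 against 0.235 and 0.146 CPM; log2 fold change -2.86, SE 0.73, adjusted p = 0.013, edgeR, lost without Lt 1, Ht 1 or Ht 2 at up to 0.0783) and than in con (log2 fold change -2.60, SE 0.75, adjusted p = 0.0132, edgeR, lost without con 1 or Ht 2 and under total-count scaling at up to 0.156). Ackr2, a scavenger of inflammatory CC ligands, was lower from Lt to Ht (5.52 and 4.47 against 1.37 and 1.9 CPM; log2 fold change -1.63, SE 0.42, adjusted p = 0.0126, edgeR, lost without Lt 1 or Ht 1 and under total-count scaling at up to 0.114) and from con to Ht (log2 fold change -1.59, SE 0.42, adjusted p = 0.00862, edgeR, lost without Ht 1 and under total-count scaling at up to 0.347). Erythroid markers, 5 of 5 called lower in both comparisons, summed to 394–537 CPM in con, 371–411 in Lt and 24.8–41.6 in Ht. Their part in the values of Ackr1 was not tested.

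Against the Mt2 tissue from which they were drawn, F4/80+ cells had 16 of 49 members called higher (all genes, 17.2%) and 6 lower (all genes, 25.2%). CD11b+ cells had 25 called higher (all genes, 17.6%) and 9 lower (all genes, 26.3%). The median log2 fold change of tested members was 0.83 and 1.48 (all genes, -0.12 and -0.08), and both comparisons share the Mt2 samples. Macrophage markers, all 9 present, summed to 1350–1790 CPM in Mt2, 14400–16500 in F4/80+ and 13200–19900 in CD11b+ cells, and hepatocyte markers to 24400–93900, 168–302 and 53.5–157. A set of 12 immediate-early and heat-shock genes such as Fos, Jun, Egr1, Atf3 and Hspa1a, chosen after the data were seen, summed to 255–561 CPM in tissue and 7730–16000 in sorted cells, with 12 of 12 called higher in both. Their part in the results on sorted cells was not tested.

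Cxcl2, Ccl3 and Ccl4 were the ligands with the largest called increases in F4/80+ cells, and all 3 were also far above tissue in CD11b+ cells. Cxcl2 measured 0.325 and 0.296 CPM in Mt2, 404, 96.2 and 176 in F4/80+ and 372, 732 and 482 in CD11b+ cells, higher in F4/80+ (log2 fold change 9.48, SE 1.38, adjusted p = 4.63e-05, edgeR) and in CD11b+ cells (log2 fold change 10.71, SE 1.43, adjusted p = 1.87e-05, edgeR). Ccl3 measured 1.04 and 3 CPM in Mt2, 193, 115 and 182 in F4/80+ and 183, 193 and 222 in CD11b+ cells. Against Mt2, Ccl3 was higher in F4/80+ cells (log2 fold change 6.28, SE 0.62, adjusted p = 1.41e-06, edgeR). Ccl3 was also higher in CD11b+ cells (log2 fold change 6.57, SE 0.63, adjusted p = 8.66e-07, edgeR). Ccl4 stood at 0.846 and 4.95 CPM in Mt2, 167, 75.7 and 143 in F4/80+ and 136, 174 and 269 in CD11b+ cells. For these 3 ligands every sorted library lay above every tissue library, Ht included. Against Mt2, Ccl4 was higher in F4/80+ cells (log2 fold change 5.41, SE 0.68, adjusted p = 1.13e-05, edgeR). Ccl4 was also higher in CD11b+ cells (log2 fold change 5.99, SE 0.69, adjusted p = 4.86e-06, edgeR). Of the inflammatory CC ligands named above, 4 of 5 were called higher in F4/80+ (all genes, 17.2%) and 5 of 5 in CD11b+ cells (17.6%), which included Ccl9 at 576, 403 and 448 CPM in F4/80+ and 591, 677 and 439 in CD11b+ cells. Against Mt2, Ccl9 was higher in F4/80+ cells (log2 fold change 2.65, SE 0.30, adjusted p = 5.09e-06, edgeR). Ccl9 was also higher in CD11b+ cells (log2 fold change 2.91, SE 0.31, adjusted p = 2.13e-06, edgeR). Ccl6 reached 572, 377 and 402 CPM in F4/80+ and 539.9, 717 and 498 in CD11b+ cells. Against Mt2, Ccl6 was higher in F4/80+ cells (log2 fold change 2.70, SE 0.29, adjusted p = 2.99e-06, edgeR). Ccl6 was also higher in CD11b+ cells (log2 fold change 3.08, SE 0.30, adjusted p = 9.02e-07, edgeR). Ccl5 was called higher in CD11b+ cells (log2 fold change 2.08, SE 0.83, adjusted p = 0.0466, edgeR, lost without Mt2 1, Mt2 2, CD11b+ 3 or Mt1 2 and under total-count scaling at up to 0.277) and not in F4/80+ cells (log2 fold change 1.60, SE 0.82, adjusted p = 0.111, edgeR), with its values of 36.5, 85 and 45.6 CPM in F4/80+ and 42.9, 28.5 and 161 in CD11b+ cells overlapping.

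Of the monocyte-attracting ligands, 3 of 4 were called higher in F4/80+ (all genes, 17.2%) and 4 of 4 in CD11b+ cells (17.6%; median 2.23 and 2.45, against -0.12 and -0.08). Ccl12 measured 12.8 and 31.5 CPM in Mt2, 107, 82.2 and 132 in F4/80+ and 106, 128 and 180.2 in CD11b+ cells. Against Mt2, Ccl12 was higher in F4/80+ cells (log2 fold change 2.27, SE 0.39, adjusted p = 0.000265, edgeR). Ccl12 was also higher in CD11b+ cells (log2 fold change 2.63, SE 0.40, adjusted p = 7.80e-05, edgeR). Ccl7 stood at 164, 76.4 and 169 CPM in F4/80+ and 135, 145 and 147 in CD11b+ cells. Against Mt2, Ccl7 was higher in F4/80+ cells (log2 fold change 2.21, SE 0.44, adjusted p = 0.000751, edgeR). Ccl7 was also higher in CD11b+ cells (log2 fold change 2.26, SE 0.45, adjusted p = 0.000591, edgeR). Ccl8 stood at 30.7, 20.7 and 15.5 CPM in F4/80+ and 28.9, 13.5 and 73.1 in CD11b+ cells. Against Mt2, Ccl8 was higher in F4/80+ cells (log2 fold change 2.25, SE 0.68, adjusted p = 0.0115, edgeR, lost without Mt2 1 or Mt2 2 at up to 0.0604). Ccl8 was also higher in CD11b+ cells (log2 fold change 3.04, SE 0.70, adjusted p = 0.00194, edgeR). Every sorted library of these 3 ligands lay above both Mt2 samples, and the sorted populations overlapped. Ccl2 differed least from tissue, at 54.6 and 129 CPM in Mt2, 177, 106 and 207 in F4/80+ and 181, 238 and 162 in CD11b+ cells. The F4/80+ libraries of Ccl2 overlapped with Mt2 and were not called (log2 fold change 0.83, SE 0.41, adjusted p = 0.101, edgeR), while Ccl2 was called higher in CD11b+ cells (log2 fold change 1.08, SE 0.41, adjusted p = 0.0386, edgeR, lost without Mt2 1 or CD11b+ 2 and under total-count scaling at up to 0.309).

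**Figure D2:**
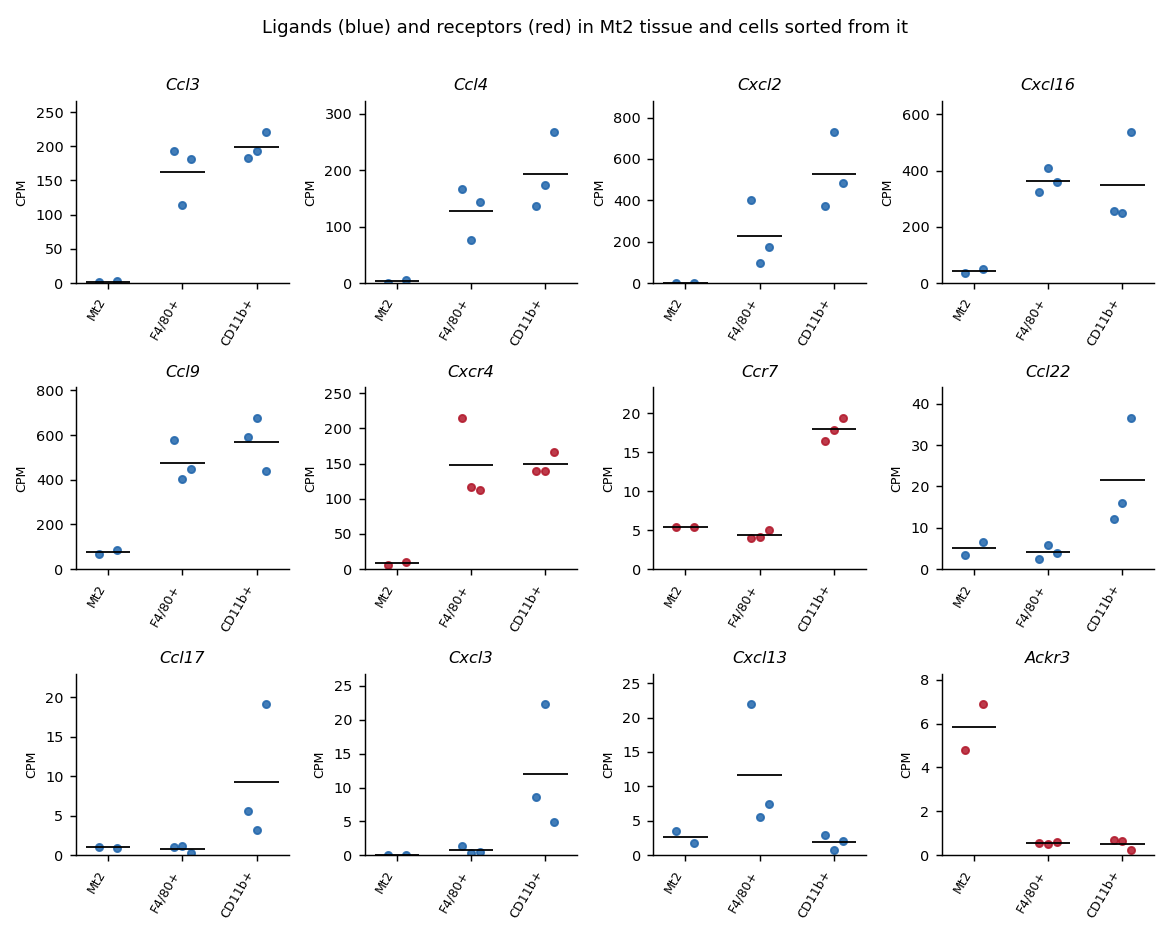
CPM of 12 members (vertical axes, each from 0) in Mt2 tissue (2 samples) and in F4/80+ and CD11b+ cells (3 each), with points for samples and short lines for means. Cxcl2 was at most 0.325 CPM in Mt2 and 96.2 to 732 in sorted cells, and Ccr7 lay at 16.5 to 19.4 in CD11b+ against 4.04 to 5.03 in F4/80+ cells.

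Interferon-inducible ligands, Cxcl16 and Pf4 were also higher in sorted cells. Cxcl10 measured 134, 169 and 194 CPM in F4/80+ and 134, 129 and 281 in CD11b+ cells. Against Mt2, Cxcl10 was higher in F4/80+ cells (log2 fold change 1.36, SE 0.48, adjusted p = 0.0257, edgeR, lost without Mt2 1 or F4/80+ 3 and under total-count scaling at up to 0.163). Cxcl10 was also higher in CD11b+ cells (log2 fold change 1.49, SE 0.48, adjusted p = 0.0161, edgeR, lost without Mt2 1 or CD11b+ 3 at up to 0.121). Cxcl9 measured 140.1, 383 and 154 CPM in F4/80+ and 149, 68.1 and 411 in CD11b+ cells. Against Mt2, Cxcl9 was higher in F4/80+ cells (log2 fold change 2.66, SE 0.87, adjusted p = 0.0187, edgeR, lost without Mt2 1, Mt2 2 or F4/80+ 2 at up to 0.107). Cxcl9 was also higher in CD11b+ cells (log2 fold change 2.55, SE 0.87, adjusted p = 0.0217, edgeR, lost without Mt2 1, Mt2 2 or CD11b+ 3 at up to 0.118). No sorted library of this pair lay as low as Mt2. Cxcl16 reached 324, 411 and 359 CPM in F4/80+ and 257, 249.5 and 538 in CD11b+ cells. Against Mt2, Cxcl16 was higher in F4/80+ cells (log2 fold change 3.10, SE 0.37, adjusted p = 7.85e-06, edgeR). Cxcl16 was also higher in CD11b+ cells (log2 fold change 3.04, SE 0.37, adjusted p = 8.16e-06, edgeR). Pf4 reached 127, 85.2 and 105 CPM in F4/80+ and 133, 157 and 166 in CD11b+ cells. Against Mt2, Pf4 was higher in F4/80+ cells (log2 fold change 2.98, SE 0.36, adjusted p = 8.31e-06, edgeR). Pf4 was also higher in CD11b+ cells (log2 fold change 3.51, SE 0.37, adjusted p = 2.09e-06, edgeR). All 7 platelet markers together summed to 1.28–2.58 CPM there. Cxcl13 was called higher in F4/80+ cells (22, 5.55 and 7.4 CPM; log2 fold change 2.16, SE 0.74, adjusted p = 0.0238, edgeR, lost without Mt2 2 or F4/80+ 1 at up to 0.142). Kupffer cell markers summed to 299–686 CPM in Mt2, 587–2350 in F4/80+ and 51.7–110 in CD11b+ cells.

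Other ligands were called higher in CD11b+ cells only, which by itself does not show that the populations differed. Cxcl3 held 3 counts in Mt2 and a pooled ratio of 167 in CD11b+ cells (57 to 812; adjusted p = 0.00179, edgeR), with 8.68, 22.3 and 4.93 CPM. Ccl17 measured 1.11 and 0.93 CPM in Mt2 and 5.6, 3.26 and 19.1 in CD11b+ cells (log2 fold change 3.19, SE 0.79, adjusted p = 0.00326, edgeR), and Ccl22 3.45 and 6.68 in Mt2 and 12.1, 16 and 36.6 in CD11b+ cells (log2 fold change 2.08, SE 0.56, adjusted p = 0.00609, edgeR, lost without Mt2 1 at 0.0639). Cxcl1 reached 19.1, 49.7 and 12.7 CPM (log2 fold change 2.01, SE 0.80, adjusted p = 0.0454, edgeR, lost without Mt2 1, Mt2 2 or CD11b+ 2 at up to 0.193) and Cxcl14 48, 76.4 and 47.6 (log2 fold change 1.59, SE 0.53, adjusted p = 0.0189, edgeR, lost without Mt2 1, Mt2 2 or CD11b+ 2 at up to 0.0859). Dendritic cell markers summed to 221–414 CPM in F4/80+ and 294–409 in CD11b+ cells, and neutrophil markers to 178–694 and 1250–4830, all 9 being present in both.

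Cxcl12, Cx3cl1 and Ccl11 were lower in sorted cells than in tissue. Cxcl12 measured 197 and 77 CPM in Mt2, 1.67, 0.442 and 1.08 in F4/80+ and 0.38, 0.465 and 0.928 in CD11b+ cells. Against Mt2, Cxcl12 was lower in F4/80+ cells (log2 fold change -7.00, SE 0.52, adjusted p = 1.85e-07, edgeR). Cxcl12 was also lower in CD11b+ cells (log2 fold change -7.88, SE 0.55, adjusted p = 8.61e-08, edgeR). Cx3cl1 stood at 24.6 and 42.6 CPM in Mt2, 6.01, 7.61 and 6.11 in F4/80+ and 6.12, 3.55 and 3.37 in CD11b+ cells. Against Mt2, Cx3cl1 was lower in F4/80+ cells (log2 fold change -2.35, SE 0.32, adjusted p = 2.83e-05, edgeR). Cx3cl1 was also lower in CD11b+ cells (log2 fold change -2.95, SE 0.33, adjusted p = 3.75e-06, edgeR), and its sorted libraries were all above 0. Ccl11 was lower in F4/80+ cells (log2 fold change -2.16, SE 0.62, adjusted p = 0.0101, edgeR, lost without Mt2 2 at 0.0637), and its ratio of Mt2 to CD11b+ cells, which held 3 counts, was 23.8 (7.65 to 120; adjusted p = 0.000274, edgeR). Cxcl5 had 2 counts in CD11b+ cells and was lower than in Mt2 by a ratio of 16.7 (4.08 to 147; adjusted p = 0.0447, edgeR, lost without Mt2 1, Mt2 2, CD11b+ 2 or CD11b+ 3 at up to 0.163). Beside them, stellate cell and fibroblast markers summed to 3410–5480 CPM in Mt2, 349–533 in F4/80+ and 164–313 in CD11b+ cells, and endothelial markers to 227–422, 121–241 and 55.9–63.5.

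Ccr1 and Cxcr4 were among the most abundant receptors of the sorted cells. Ccr1 measured 17 and 39.7 CPM in Mt2, 312, 338 and 295 in F4/80+ and 321, 374 and 286 in CD11b+ cells. Against Mt2, Ccr1 was higher in F4/80+ cells (log2 fold change 3.47, SE 0.40, adjusted p = 5.04e-06, edgeR). Ccr1 was also higher in CD11b+ cells (log2 fold change 3.53, SE 0.40, adjusted p = 3.89e-06, edgeR). Cxcr4 rose from 6.57 and 9.68 CPM in Mt2 to 215, 116 and 112 in F4/80+ and 139, 139.9 and 167 in CD11b+ cells. Against Mt2, Cxcr4 was higher in F4/80+ cells (log2 fold change 4.17, SE 0.48, adjusted p = 5.36e-06, edgeR). Cxcr4 was also higher in CD11b+ cells (log2 fold change 4.18, SE 0.48, adjusted p = 4.59e-06, edgeR). The sorted libraries of both receptors were above every tissue library. Xcr1, the receptor of cross-presenting dendritic cells, was called higher in CD11b+ cells at 3.23, 1.4 and 10.4 CPM (log2 fold change 1.48, SE 0.60, adjusted p = 0.0496, edgeR, lost without Mt2 1, Mt2 2, CD11b+ 3 or Mt1 2 and under total-count scaling at up to 0.439), as was Ccr7 (log2 fold change 1.73, SE 0.35, adjusted p = 0.000757, edgeR). Cxcr1, a neutrophil receptor, had no count in Mt2 and was at least 5.25-fold higher in CD11b+ cells (adjusted p = 0.00851, edgeR, lost under DESeq2 at 0.17). It passed the filter only through CD11b+ cells, where it is high, and was not tested in the other fits, so its adjusted p is no independent support. Ccr4 was lower there, with 1 count against 14 in Mt2 (ratio 22.2, 3.38 to 940; adjusted p = 0.0229, edgeR, lost without Mt2 2, CD11b+ 2 or CD11b+ 3 at up to 0.271).

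All 4 atypical receptors were called lower in CD11b+ cells (all genes, 26.3%) and 3 of 4 in F4/80+ cells (25.2%). Ackr3 measured 4.82 and 6.89 CPM in Mt2, 0.555, 0.54 and 0.592 in F4/80+ and 0.712, 0.677 and 0.232 in CD11b+ cells. Against Mt2, Ackr3 was lower in F4/80+ cells (log2 fold change -3.37, SE 0.45, adjusted p = 1.91e-05, edgeR). Ackr3 was also lower in CD11b+ cells (log2 fold change -3.40, SE 0.44, adjusted p = 1.56e-05, edgeR). Ackr1 was at most 0.152 CPM in F4/80+ and 0.406 in CD11b+ cells. Against Mt2, Ackr1 was lower in F4/80+ cells (log2 fold change -3.32, SE 0.87, adjusted p = 0.00503, edgeR, lost without Mt2 1 at 0.0788). Ackr1 was also lower in CD11b+ cells (log2 fold change -3.29, SE 0.87, adjusted p = 0.00515, edgeR, lost without Mt2 1 at 0.0814). Ackr2 was at most 1.42 and 0.696 CPM. Against Mt2, Ackr2 was lower in F4/80+ cells (log2 fold change -1.75, SE 0.47, adjusted p = 0.00604, edgeR, lost without Mt2 1 at 0.115). Ackr2 was also lower in CD11b+ cells (log2 fold change -2.99, SE 0.51, adjusted p = 0.000169, edgeR). Ackr4 passed in CD11b+ cells (log2 fold change -2.95, SE 0.87, adjusted p = 0.0102, edgeR, lost without Mt2 1 at 0.0525) and not in F4/80+ cells (log2 fold change -1.86, SE 0.79, adjusted p = 0.0604, edgeR).

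Between the sorted populations, edgeR called 1 of 39 members, Ccr7, higher in CD11b+ cells (all genes, 0.0701%) and none lower (all genes, 0.00701%; 1 member was lower at an unadjusted p under 0.05, and DESeq2 called 1). Ccr7 measured 4.04, 4.08 and 5.03 CPM in F4/80+ and 16.5, 17.9 and 19.4 in CD11b+ cells, with no overlap (log2 fold change 2.08, SE 0.18, adjusted p = 0.0284, edgeR, lost without F4/80+ 1, F4/80+ 2 or CD11b+ 2 at up to 0.194). Its lowest CD11b+ library was still above its highest F4/80+ library by more than the spread within either population. Other members had large differences that did not pass. Cxcl3 measured 1.31, 0.393 and 0.542 against 8.68, 22.3 and 4.93 CPM (log2 fold change 4.04, SE 0.69, adjusted p = 0.0714, edgeR), Ccl17 1.06, 1.23 and 0.246 against 5.6, 3.26 and 19.1 (log2 fold change 3.51, SE 0.80, adjusted p = 0.169, edgeR) and Ccl22 2.52, 5.84 and 3.85 against 12.1, 16 and 36.6 (log2 fold change 2.46, SE 0.48, adjusted p = 0.103, edgeR). Each of these 3 was higher in every CD11b+ library than in every F4/80+ library. Cxcl13 leaned to F4/80+ cells, at 22, 5.55 and 7.4 against 2.94, 0.804 and 2.03 CPM (log2 fold change -2.55, SE 0.64, adjusted p = 0.227, edgeR). The receptor Cxcr2, which is no member but binds the ELR ligands, measured 0.253, 1.13 and 5.47 CPM in F4/80+ and 36.7, 56.3 and 50.4 in CD11b+ cells (log2 fold change 4.43, SE 0.80, adjusted p = 0.0864, edgeR). DESeq2 called 6 members here, and edgeR called 3 without CD11b+ replicate 3. The shares of all genes above belong to the main fit, so these counts cannot be read against them.

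Levels can be compared between genes only per length, as FPKM (CPM per kilobase of the deposited gene length, group means). In con, Cxcl12 led the ligands at 47.9 FPKM, or 33.8% of the sum over ligands, followed by Ccl9 at 40.1 and Cxcl9 at 11.4. Ccl9, at 50.9 and 29.3 FPKM in the 2 con samples, overlapped with Cxcl12, at 47.2 and 48.5, so the order of these 2 was not settled. In Ht the order was Ccl2 at 74.2, Ccl12 at 60.3, Ccl6 at 53.9, Ccl7 at 40.9 and Pf4 at 38.9. The sample range of Ccl2 in Ht, 67.8 to 80.6, lay above that of Ccl12, 55.8 to 64.9. Ccl12 overlapped with Ccl6 (50.6 to 57.2) and Ccl7 with Pf4, so that the order within each of these pairs was not settled. In F4/80+ cells Ccl6 led at 251 FPKM, with Ccl3 at 213, Ccl12 at 199 and Ccl4 at 195, and in CD11b+ cells Ccl6 at 326 was followed by Ccl4 at 292, Ccl3 at 260, Ccl12 at 257 and Cxcl2 at 256. The first ranks overlapped between samples in both populations. Ligands together summed to 142 FPKM in con, 434 in Ht, 2015 in F4/80+ and 2645 in CD11b+ cells.

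Receptors were led in con by Ackr2 at 1.55 FPKM, and in Ht by Ccr1 at 18.0, or 43.2% of the sum over receptors, with Cxcr4 at 4.44. In F4/80+ cells Ccr1 stood at 111 FPKM and Cxcr4 at 81.6, and in CD11b+ cells at 116 and 82.2, with Ccr7 at 9.06. Receptors other than Ccr2 and Cxcr2 summed to 6.22 FPKM in con, 41.7 in Ht and 265 and 266 in the sorted cells.

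**Figure D3:**
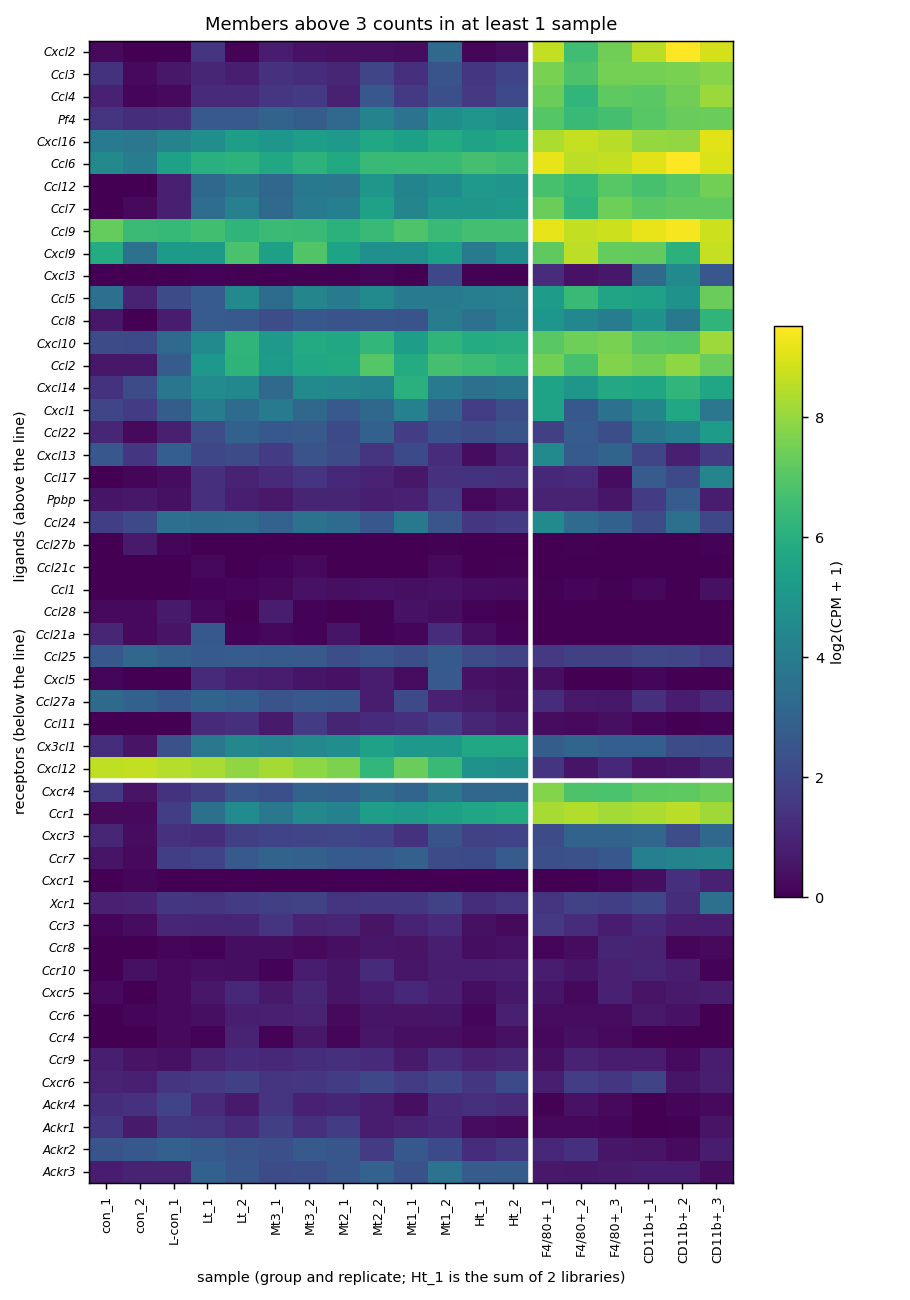
Heat map of log2(CPM + 1) for 51 members above 3 counts in some sample (33 ligand rows, 18 receptor rows) in 19 sample columns, ordered by mean level in sorted cells minus tumor-bearing tissue. The top of each block (Cxcl2, Ccl3 and Ccl4, then Cxcr4 and Ccr1) is high in sorted cells, and the foot (Cxcl12, Cx3cl1 and Ackr3) is high in tissue.

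Setting ligand beside receptor, the sorted cells held both partners of Ccl3, Ccl4, Ccl5 and Ccl9 with Ccr1, and of Ccl2, Ccl7 and Ccl12 with Ccr2, a partner outside the set that measured 53.6 and 111 CPM in Mt2, 471, 845 and 644 in F4/80+ and 479, 492 and 663 in CD11b+ cells. Cxcl12 and Cxcr4 were split, the ligand being at most 1.67 CPM and the receptor at least 112 CPM in sorted cells. Cx3cl1 and Cx3cr1 were split as well, with the ligand at 3.36 to 7.61 CPM and the receptor, a partner outside the set, at 657, 827 and 786 CPM in F4/80+ and 574, 522 and 563 in CD11b+ cells. In tissue, Cx3cr1 measured 2.75 and 0.604 CPM in con and 108 and 118 in Ht (log2 fold change 6.07, SE 0.67, adjusted p = 0.000158, edgeR), so that ligand and receptor both rose. Cxcl12 and Ackr3 were both low in sorted cells, and Cxcl16 was high there while its receptor Cxcr6 stood at 0.758, 2.31 and 1.87 CPM in F4/80+ and 2.85, 0.465 and 0.754 in CD11b+ cells. Cxcl10 and Cxcl9 were at least 129 and 68.1 CPM in every sorted library, against 3.59 to 8.24 for Cxcr3.

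**Figure D4:**
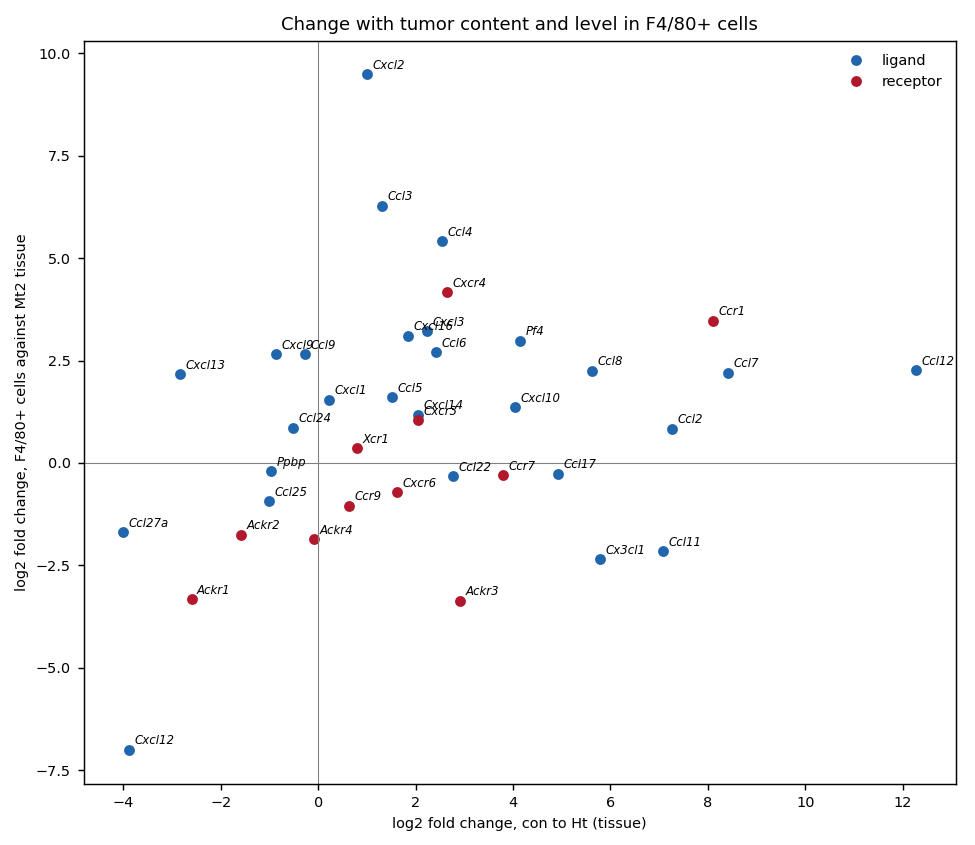
Log2 fold change from con to Ht (horizontal axis) against log2 fold change of F4/80+ cells over Mt2 tissue (vertical axis) for 38 members with an average log2 CPM of at least 0 in either fit, ligands in blue and receptors in red. Both were above 0 for 19, 8 were above 0 in tissue and below 0 in F4/80+ cells (Cx3cl1 and Ackr3 among them), 4 were the reverse and 7 were below 0 in both (Cxcl12 at the far corner), and the horizontal values of Ccl12 and Ccl11 were fitted against 0 counts in con.

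The plot of both contrasts separates members that rose in tissue and were high in F4/80+ cells, such as Ccl12, Pf4 and Ccr1, from Cx3cl1 and Ackr3, which rose in tissue and were low in those cells. Genes of the chemokine pathway outside the set (G protein subunits, arrestins, receptor kinases, phosphoinositide 3-kinase gamma, Rac and Dock2, and RGS proteins, with Ccr2, Cxcr2 and Cx3cr1) were called higher in 17 of 37 from con to Lt (all genes, 12.4%) and 27 of 37 from con to Ht (25.8%) with 2 lower. In F4/80+ cells 26 were called higher (all genes, 17.2%) and 4 lower, and in CD11b+ cells 28 higher (17.6%) and 3 lower. Their median log2 fold change was 1.21 from con to Lt (all genes, 0.10), 1.42 from con to Ht (0.09), 2.67 in F4/80+ (-0.12) and 2.63 in CD11b+ cells (-0.08). Many of these genes are expressed in all leukocytes.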

How the data were processed

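RNA sequencing was done on 20 libraries (14 tissue, 6 sorted-cell). The authors deposited raw read counts per gene in 1 table for tissue and 1 for sorted cells, with gene coordinates and gene length beside them, which are other than measurements. The submitters' processing notes name CASAVA, HISAT2 2.0.5, featureCounts 1.5.0-p3 and GRCm38/mm10. No column of sample values was left unmapped (0).

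Tests were made with edgeR 4.0.16 in R 4.3.3 (quasi-likelihood F test, TMM scaling, filterByExpr, Benjamini-Hochberg over all genes tested) with a threshold of 0.05 on the adjusted p and of 1 on the size of the log2 fold change. Tissue comparisons used 1 fit of 13 samples in 7 groups, CD11b+ against F4/80+ cells a fit of 6 samples, and sorted cells against Mt2 a joint fit of 19 samples in 9 groups. Ht_1 and Ht_3 were summed. Fold changes come from these fits, while printed CPM values carry the TMM scaling of the joint fit, and FPKM is that CPM per kilobase. A fold against 0 counts was bounded by a floor of 3 counts per library, and pooled counts of 1 to 3 were given as ratios with exact 95% intervals, which cover counting error only. On simulated counts with 200 genes changed by a log2 fold change of 2, the tests recovered 72.5, 73.5 and 77% of them for con to Lt, Lt to Ht and con to Ht, 97.5% for CD11b+ against F4/80+, and 87% for each comparison with Mt2. In the data, Cxcl3, Ccl17 and Ccl22 were not called between the sorted populations at log2 fold changes of 4.04, 3.51 and 2.46. The simulated 97.5% is therefore no measure of the power of that comparison, and its uncalled members are not shown to be equal.

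Full statistics were given, by a rule set for each comparison, for the 10 called members with the largest change and an average log2 CPM of at least 0 and for called members of a ligand-receptor pair, and values of other members were added. 1 member is not reported here. Members and gene lists were chosen with earlier results of these data known. Alternatives were DESeq2 1.42.0, total-count scaling, no filter, a replicate block, the joint fit, Ht as 3 samples and leaving out in turn each library of the groups compared. Python 3.11.15, pandas 2.3.3 and matplotlib 3.10.9 were used for tables and figures. Cxcl11 was not analysed here.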

Additional observations from a re-analysis of the deposited data

Results flagged for a closer look

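In L-con, the 1 library of tumor-free liver from a tumor-bearing mouse, which entered no comparison, 10 members stood at 3 or more times the highest con sample and above 3 counts, of 36 members above that floor there. The share of all genes meeting this rule was not taken, so the count is not read as a trait of the members. Cxcl14 measured 12.2 CPM (highest con sample 3.62), Ccl24 10.02 (3.28), Ccl2 5.79 (0.549), Cx3cl1 4.15 (1.37), Ccr1 2.42 (0.183), Ccr7 2.42 (0.458) and Ccr3 1.04 (0.259). Ccl12 and Ccl7 each measured 0.777, with 9 counts, against 0 and 0.172 in con, and Ccl28 measured 0.605, with 7 counts, against 0.183. With 1 library the differences were not tested. Macrophage markers summed to 998 CPM in L-con and 430–647 in con, Kupffer cell markers to 953 and 333–445, monocyte markers to 69.3 and 11.3–17.5, and stellate cell and fibroblast markers to 695 and 293–402. Neutrophil markers, with Camp and Ly6g at 0 counts in L-con, summed to 15.9 and 3.36–5.22. The part of cell content in these values was not tested.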

How the results depend on the processing

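Counts of called members moved by over 1.5 times in 3 comparisons, and the causes were not tested. Ranges on leaving out 1 library cover only the libraries of the groups compared, in turn, with Ht_1 and Ht_3 left out together. Leaving out Mt1 replicate 2 is outside these ranges and is given at the end. From con to Lt (18), 28 were called with no filter and 6–15 on leaving out 1 library (6 without con replicate 2). From Lt to Ht (13), leaving out 1 library gave 3–15, with 4 without Lt replicate 1, 3 without Ht replicate 1 and 7 without Ht replicate 2. For CD11b+ against F4/80+ (1), DESeq2 and no filter gave 6 each, the joint fit 3, the replicate block 2 and leaving out 1 library 0–3 (0 without F4/80+ replicate 1, F4/80+ replicate 2 or CD11b+ replicate 2, and 3 without CD11b+ replicate 3). Leaving out 1 library gave 22–28 from con to Ht (28), 18–24 for F4/80+ (22) and 23–35 for CD11b+ cells (34) against Mt2. Ccl25 from con to Ht reversed to 0.16 under total-count scaling (adjusted p = 0.749, edgeR). Of the other values of single members, 1191 kept direction and call and 141 lost the call in the same direction. Replicate numbers did not pair samples (correlations of same-numbered deviations -0.123 to 0.105), and the replicate block gave 19, 14, 29, 2, 22 and 31 calls in the order of the report, without the calls of Cxcl9, Ccl5, Xcr1 and Cxcl5 in CD11b+ cells (log2 fold changes 2.07, 1.48, 0.78 and -3.32; edgeR adjusted p = 0.0725, 0.158, 0.241 and 0.113) and of Ccl25 from con to Ht (-0.98, adjusted p = 0.016). Exchanged Lt numbers, added after the data were seen, gave 18 from con to Lt, and leaving out Mt1 replicate 2, also added, gave 20, 12, 29, 25 and 33 in the 5 comparisons with tissue. The precision is limited by 2 samples in each tissue group and 3 in each sorted population.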
